A study of Mus musculus with 6 samples.

Results

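Cops3 and the genes of the COP9 signalosome, a multisubunit enzyme complex, were followed in the hippocampus of mice with a duplicated stretch of chromosome 11. The members were chosen by gene symbol: every probe set annotated to exactly 1 of Cops3, Gps1, Cops2, Cops4, Cops5, Cops6, Cops7a, Cops7b, Cops8 and Cops9 was taken. This gave 20 of the 45037 probe sets on the arrays and 10 of 18193 measured genes. The study measured RNA on 6 Affymetrix arrays, and each sample record names 1 individual. The labelling protocol speaks of pools, so it is not settled whether a value stands for 1 mouse, and samples are called mice here as the records have them. Its duplication group held 3 mice of genotype Dp(11)17/+, heterozygous for the duplication, and its control group 3 mice of genotype +/+. The labels give both groups the same background, C57BL/6-Tyr c-Brd, male sex and an age of 11 to 14 weeks. Potocki-Lupski syndrome, which the series title names, arises in people from a duplication of the corresponding human region. The tissue was taken from the sample records, since the extraction protocol in the labels lists whole brain and other organs. Values are log2 expression made by the authors with RMA, so a difference of 1 is a doubling of signal, and probe sets of different genes cannot be ranked by level. Nothing in the labels names litters or preparation days. The sample titles carry numbers that the labels do not explain and that differ between the groups, so such factors cannot be told apart from genotype.

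The COP9 signalosome takes the small protein NEDD8 off cullins, the scaffold proteins of the largest family of ubiquitin ligases. Cullins with NEDD8 attached are active, and the cycle of attachment and removal lets the ligases exchange their substrate receptors. Cops5 is the metalloprotease that cuts NEDD8 off, and Cops6 is its partner with the same MPN fold but without catalytic activity. Gps1, Cops2, Cops3, Cops4, Cops7a or Cops7b, and Cops8 carry the PCI domain that holds the complex together, and Cops9 is a small acidic subunit. The subunits work as 1 complex, while of their genes only Cops3 is placed in the duplicated segment, as its first gene in the usual drawing. Whether the extra copy holds a whole Cops3 gene is not settled by the labels, and the values below did not show it raised. Gps1 is on chromosome 11 as well, outside the segment, and the other members are on chromosomes 1, 2, 5 and 6. The symbol Csn3, sometimes used for the human or mouse Cops3 product, is the official symbol of a casein gene and was not matched.

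The regulatory sequence of Cops3 is shown because the gene stands at the edge of the duplicated segment as commonly drawn. The sequence lies on the inner side of the gene, so the gene body stands between it and the drawn breakpoint. The 250 bases before its start in RefSeq's GRCm38.p6 annotation lie on the minus strand at chr11:59839768-59840017. They are printed 5′ to 3′ in the direction of transcription, with capitals on the letters TTCCGG.
Cops3: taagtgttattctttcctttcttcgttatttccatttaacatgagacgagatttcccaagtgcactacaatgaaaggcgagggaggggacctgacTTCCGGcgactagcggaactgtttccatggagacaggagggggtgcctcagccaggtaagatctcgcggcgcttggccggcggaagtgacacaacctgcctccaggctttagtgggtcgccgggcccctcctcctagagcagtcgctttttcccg

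The capitals mark CCGGAA or its reverse complement TTCCGG, the core recognised by ETS transcription factors, a motif chosen after the promoters had been read. Promoter windows, which run from 250 bases before a start to shortly after it, were found for 9 of the 10 members. On either strand, 7 of the 9 members held CCGGAA, against 16.7% of 27025 genes with a window and 20.9% of 17492 protein-coding ones. The longer form CCGGAAGT, which contains the core, was found in Cops3 and Cops9 and in 5.69% of protein-coding genes. The TATA letters TATAAA were found in 0 of the 9, against 14.8%, and the GC box GGGCGG in 5 of the 9, against 49.2%. Stretches with 15 bases on each side of the core are shown for the other 6 members that hold it, to set their contexts beside that of Cops3. Where a member holds several matches, the one closest before the first listed start is given, and matches on opposite strands can overlap, as at TTCCGGAA in Cops2.
Gps1, chr11:120784235-120784270, plus strand: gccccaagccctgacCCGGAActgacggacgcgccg
Cops2, chr2:125859071-125859106, minus strand: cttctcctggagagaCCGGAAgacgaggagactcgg
Cops4, chr5:100518127-100518162, plus strand: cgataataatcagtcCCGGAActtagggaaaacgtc
Cops7a, chr6:124965511-124965546, minus strand: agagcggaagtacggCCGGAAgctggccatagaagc
Cops8, chr1:90603283-90603318, plus strand: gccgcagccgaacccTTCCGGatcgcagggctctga
Cops9, chr1:92641953-92641988, minus strand: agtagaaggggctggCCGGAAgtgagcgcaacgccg
These matches describe letters in a window, and no binding was measured here.

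The arrays carried differences between mice that touch every comparison below. Dp(11)17/+ mouse 1 had a log2 value of 9.13 for Xist, the RNA that coats the silenced X of females, against 3.06 to 3.69 in the other 5 mice, although it was labelled male. Its Y-linked Eif2s3y was at 2.48, against 5.41 to 6.01 in the others. The mean over 5 dentate granule cell markers was 5.30, 7.60 and 3.69 in Dp(11)17/+ mice 1, 2 and 3 and 6.42 to 6.83 in +/+ mice. The mean over 6 striatal markers was 6.26, 5.38 and 7.39, against 5.14 to 5.68. The mean over 6 choroid plexus markers was 7.95 in +/+ mouse 1, against 4.68 and 4.77 in the other wild-type mice, and it was 7.03, 4.84 and 7.15 in the duplication mice. General neuronal markers, 5 of them, were level at 11.11 to 11.19 and 11.15 to 11.26. Dp(11)17/+ mouse 3, and less so mouse 1, thus read low in dentate markers and high in striatal ones. Whether this reflects the tissue taken was not tested. Of the members, only Cops3, Gps1, Cops5, Cops7a, Cops8 and Cops9 are given below with 1 of these mice left out. Bulk RNA cannot tell apart fewer cells of a type and less RNA per cell.

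Cops3 read no higher in the duplication mice than in wild type. Its brightest probe set had log2 values of 8.35, 8.44 and 8.52 in Dp(11)17/+ mice 1, 2 and 3, and of 8.61, 8.62 and 8.58 in +/+ mice 1, 2 and 3. All 3 duplication mice lay below all 3 wild-type mice, and the wild-type mice lay within 0.04 of each other. The group means were 8.43 ± 0.09 and 8.60 ± 0.02 (SD, n = 3 each). The difference of -0.17, or 0.891-fold, had a 95% confidence interval of -0.36 to 0.02, and limma gave an unadjusted p of 0.0769 and an adjusted p of 0.994 over all 45037 probe sets. A gene dose of 3 copies against 2 corresponds to 0.58 on this scale, and the interval lay below that. With Dp(11)17/+ mouse 1 left out the difference was -0.12, and with mouse 3 left out it was -0.21. Dp(11)17/+ mouse 2 alone gave -0.17 against the 3 wild-type mice. Its striatal and thalamic marker means were near those of wild type, while its dentate and CA1 means stood 1.02 and 0.45 above the wild-type mean.

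The remaining 3 Cops3 probe sets carried little signal. Probe set 1441156_at was between 2.75 and 3.01, 1458259_x_at between 2.39 and 2.51, and 1443570_at between 2.23 and 2.46 over the 6 mice, all below the array medians of 3.74 to 3.79. Their differences were 0.03, 0.04 and 0.06, with the groups overlapping in each. At such values a probe set may not register its transcript at all, so the reading of Cops3 rests on 1 probe set, 1416678_at. The exons it covers were not looked at, for lack of probe sequences in the sources used here.

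**Figure D1:**
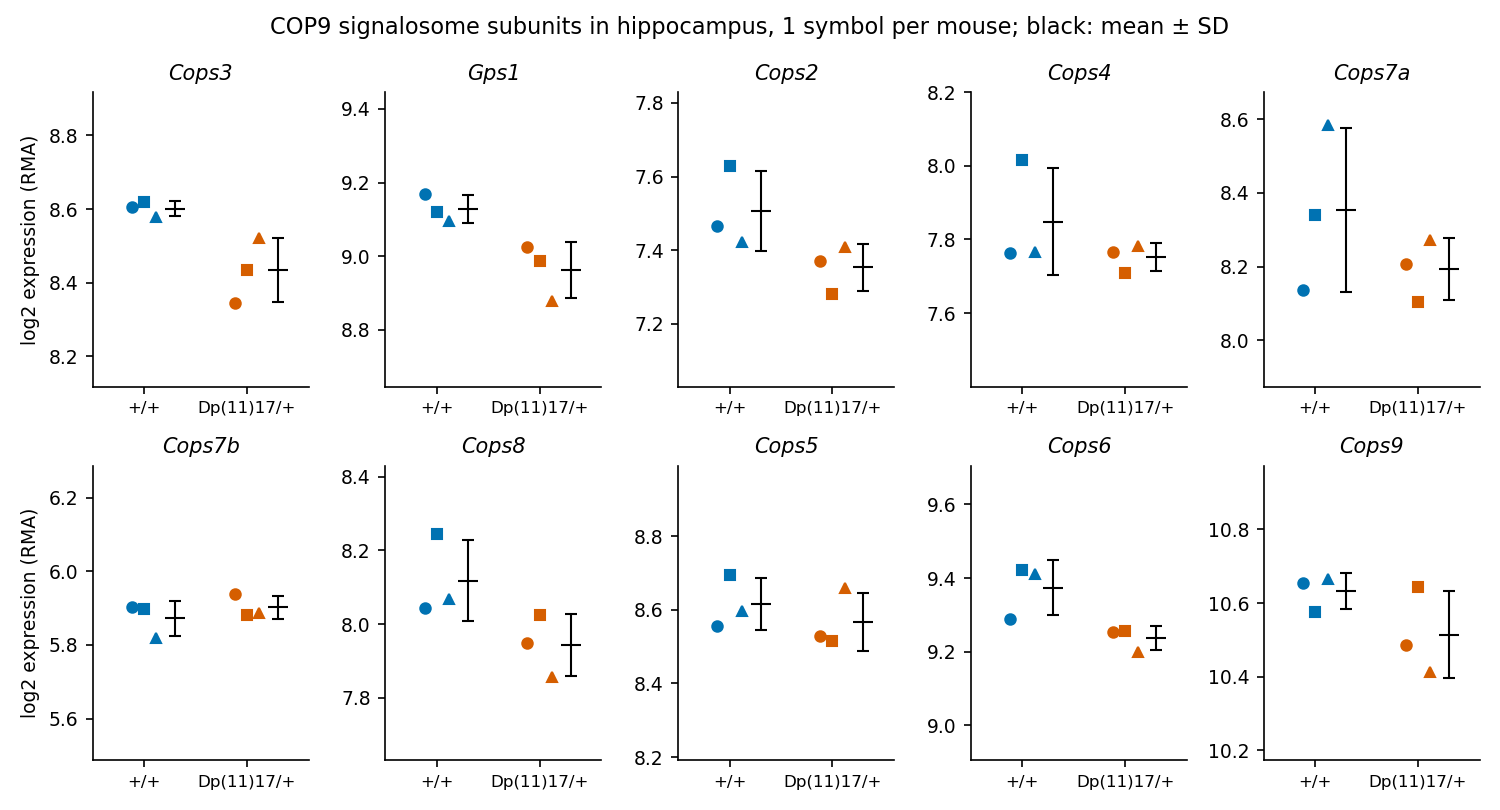
Log2 expression (RMA) of the brightest probe set of each of the 10 subunit genes in 3 +/+ mice (blue) and 3 Dp(11)17/+ mice (orange), 1 symbol per mouse (circle, square and triangle for mice 1, 2 and 3), with black bars for mean ± SD; every panel spans the same range of log2 units. Cops3 lies lower in all 3 duplication mice, as do Gps1, Cops2, Cops8 and Cops6, while Cops7b overlaps at 5.82 to 5.94.

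Among the other PCI subunits, Gps1, the subunit also called CSN1, had the difference nearest to that of Cops3. Its values were 9.03, 8.99 and 8.88 in duplication mice and 9.17, 9.12 and 9.10 in wild-type mice, with no overlap. The difference was -0.17 (95% interval -0.35 to 0.02, limma adjusted p = 0.994). In Gps1 the lowest mouse was Dp(11)17/+ mouse 3, while in Cops3 it was mouse 1. Without Dp(11)17/+ mouse 3 the Gps1 difference was -0.12.

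Cops8, the smallest PCI subunit, had values of 7.95, 8.02 and 7.85 against 8.04, 8.25 and 8.07. Its difference of -0.18 (interval -0.39 to 0.04) was the lowest of the 10 brightest probe sets. That difference was -0.11 without +/+ mouse 2 and -0.13 without Dp(11)17/+ mouse 3. The groups were separated by 0.02, the gap between Dp(11)17/+ mouse 2 and +/+ mouse 1.

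Cops2, a scaffold subunit that contacts the cullin and its RING partner, had values of 7.37, 7.28 and 7.41 against 7.47, 7.63 and 7.42. The groups did not overlap but nearly touched, and the difference was -0.15 (interval -0.36 to 0.06), or -0.09 without +/+ mouse 2. Its dimmer probe set overlapped and gave -0.02, so the reading of Cops2 depended on the probe set.

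Cops4, which sits beside the catalytic pair and takes part in sensing the bound ligase, had values of 7.77, 7.71 and 7.78 against 7.76, 8.02 and 7.77. Only +/+ mouse 2 stood above the other 5 mice, and the difference of -0.10 (interval -0.32 to 0.13) fell to -0.01 without it.

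Cops7a and Cops7b are alternative forms of 1 subunit. Cops7a had values of 8.21, 8.10 and 8.27 against 8.14, 8.34 and 8.58, the widest spread of the brightest probe sets in wild type (SD 0.22), and its difference was -0.16 (interval -0.45 to 0.14). It was -0.04 without +/+ mouse 3 and -0.27 without +/+ mouse 1. The second probe set of Cops7a gave -0.00. Cops7b was at 5.94, 5.88 and 5.89 against 5.90, 5.90 and 5.82, a difference of 0.03 (interval -0.15 to 0.21), and its second probe set gave 0.01. Cops7b was the 1 member with a positive difference at its brightest probe set, and also the 1 whose mean log2 value was under 6.

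The catalytic subunit Cops5 differed least among the 9 members whose mean over the arrays reached 6. Its values were 8.53, 8.51 and 8.66 against 8.56, 8.69 and 8.60, with overlapping groups and a difference of -0.05 (interval -0.25 to 0.15). That difference was not steady, at -0.01 without +/+ mouse 2, -0.03 and -0.02 without Dp(11)17/+ mice 1 and 2, and -0.09 and -0.08 without Dp(11)17/+ mouse 3 and +/+ mouse 1. A second probe set of Cops5 lay at 2.45 to 2.56, below the array medians, and gave 0.01.

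Cops6, the partner of Cops5, had values of 9.26, 9.26 and 9.20 against 9.29, 9.42 and 9.41. The groups did not overlap, and the difference was -0.14 (interval -0.32 to 0.05). Its dimmer probe set read 5.88, 5.88 and 5.76 against 6.03, 6.04 and 6.04. That probe set gave -0.20 (interval -0.38 to -0.02), with the smallest unadjusted p of all 20 member probe sets, 0.0349, and an adjusted p of 0.994 in limma. Cops6 was the only gene in which more than 1 probe set kept the groups apart in the same direction.

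Cops9 gave 10.49, 10.64 and 10.41 against 10.66, 10.58 and 10.67 at its brightest probe set, which overlapped, for a difference of -0.12 (interval -0.33 to 0.09), which was -0.07 without Dp(11)17/+ mouse 3 and -0.18 without mouse 2. The next probe set gave -0.09 and did not overlap. The remaining, dimmer one read 6.15, 7.06 and 6.02 in Dp(11)17/+ mice 1, 2 and 3 and 6.88, 6.77 and 7.03 in wild type, for the widest interval of all member probe sets, -1.10 to 0.13 around -0.49. The low readings were those of mice 1 and 3, the mice with low dentate and high striatal marker means, and mouse 2 lay above every wild-type mouse. The part of tissue composition in this reading was not tested.

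**Figure D2:**
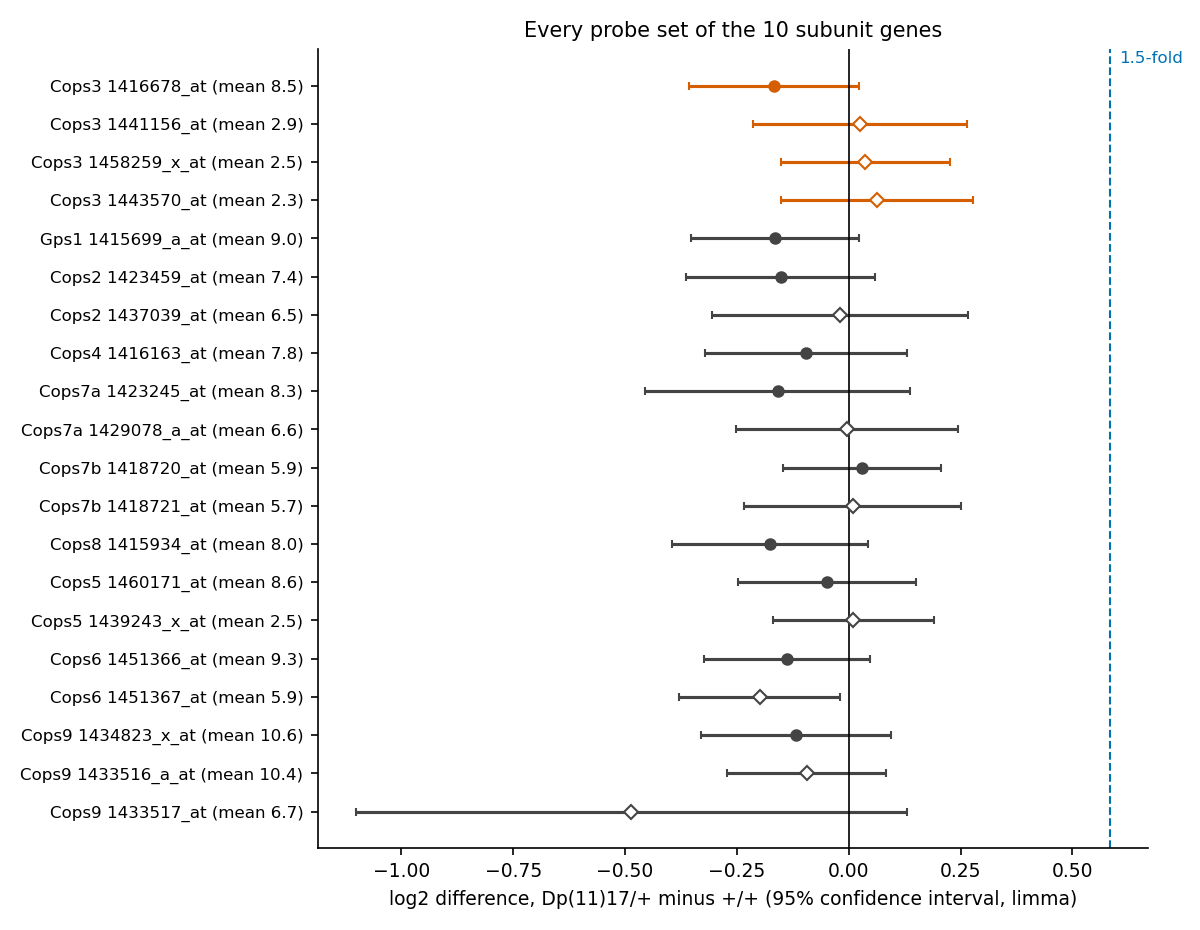
Log2 difference between Dp(11)17/+ and +/+ mice for each of the 20 member probe sets, with 95% confidence intervals from limma; filled circles are the brightest probe set of a gene, open diamonds the others, orange marks Cops3 and the dashed line marks 1.5-fold. All 20 intervals end to the left of the dashed line, and 1 of them, the dimmer Cops6 probe set, lies wholly below 0.

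Over the 10 genes, 9 were lower and 1 higher in duplication mice at the brightest probe set, with a median difference of -0.15. Among all 18193 genes 58.3% were lower and the median was -0.02, and among the 7104 genes whose mean over the 6 arrays reached 6 these were 59.1% and -0.03. Of the 10 genes, 0 passed limma at an adjusted p of 0.05, where the background was 0% of all probe sets, and 0 had an unadjusted p under 0.05, against 3.17% of all genes. Over the 20 probe sets 1 had an unadjusted p under 0.05, against 2.82% of all probe sets. No subunit can therefore be called changed on its own. In 5 of the 10 genes, Cops3, Gps1, Cops2, Cops8 and Cops6, the 3 duplication mice all lay under the 3 wild-type mice, against 5.59% of all genes. The opposite order was found in 0 of the 10, against 2.7%. RNAs measured in the same 6 mice share whatever differs between those mice, so the members are not independent readings.

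Cops3 was set against the rest of its complex to see whether the subunit placed in the segment parts from the others. It did not do so beyond the spread between mice. Relative to the wild-type means, Cops3 stood at -0.26, -0.17 and -0.08 in Dp(11)17/+ mice 1, 2 and 3, and the mean over the 9 other subunits at -0.10, -0.12 and -0.12. Cops3 minus the others was thus -0.15, -0.05 and 0.04, or -0.05 ± 0.10 (SD, n = 3), and in wild-type mice it was 0.06, -0.04 and -0.02 (SD 0.05). When each gene was taken as the mean over its probe sets, which gives the 3 dim Cops3 probe sets the same weight as the bright one, the Cops3 difference was -0.01 and Cops3 minus the others turned to 0.10. No test is given for these values, since the members were chosen with results known.

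Along the chromosome the picture changed between Cops3 and the next gene. Nt5m, a mitochondrial nucleotidase and the nearest measured gene inside the segment, read 8.57, 8.69 and 8.75 in duplication mice and 8.25, 8.28 and 8.27 in wild-type mice. Its difference was 0.40 (95% interval 0.21 to 0.59, limma adjusted p = 0.994). Cops3 minus Nt5m, relative to the wild-type mean of that quantity, was -0.56, -0.58 and -0.56 in the duplication mice and between -0.03 and 0.02 in wild type. Of the next measured genes inside, Med9os was dim, with a difference of 0.00, and Med9, a subunit of the Mediator complex, gave 0.55 (interval 0.26 to 0.84). On the outer side, Flcn, the folliculin gene, gave 0.05 (interval -0.21 to 0.32), Pld6 gave -0.04 and 1700007J10Rik gave -0.03, the last 2 with log2 values near 3.

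From Cops3 to Rnf112, 33 genes were measured, and 19 of the other 32 reached a mean of 6 over the arrays. That mean counts the duplication mice, so the cut favours genes raised in them, and this holds for every value of the 19 below. All 19 were higher in duplication mice, between 0.23 and 0.76, with a median of 0.49. Over all 32, 29 were higher and 3 lower, with a median of 0.36, and the dim Slc47a1, a transporter gene, lay below Cops3 at -0.55. The mean of the 19 stood 0.41, 0.51 and 0.52 above wild type in Dp(11)17/+ mice 1, 2 and 3. Cops3 minus that mean was -0.66, -0.68 and -0.60 in the same mice and between -0.05 and 0.04 in wild-type mice. For this difference of -0.65, the exact permutation test (two-sided, 20 labelings) gave p = 0.1, and groups of 3 cannot give a smaller one. The 19 genes come from the segment and passed a cut that favours raised genes, so this p cannot decide anything about Cops3 itself. The intervals of 17 of the 19 genes held 0.58, and that of Cops3 did not. Over all 32, 20 intervals held 0.58 and 12 ended below it, as that of Cops3 did. Among the 17, those of Rasd1 (-0.56 to 1.26) and Rnf112 (-0.29 to 0.74) also held 0. The interval of Cops3 overlapped those of all 9 other subunits and of its outer neighbours Flcn, Pld6 and 1700007J10Rik. On the inner side it overlapped that of the dim Med9os (-0.29 to 0.30) and ended below those of Nt5m and Med9.

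**Figure D3:**
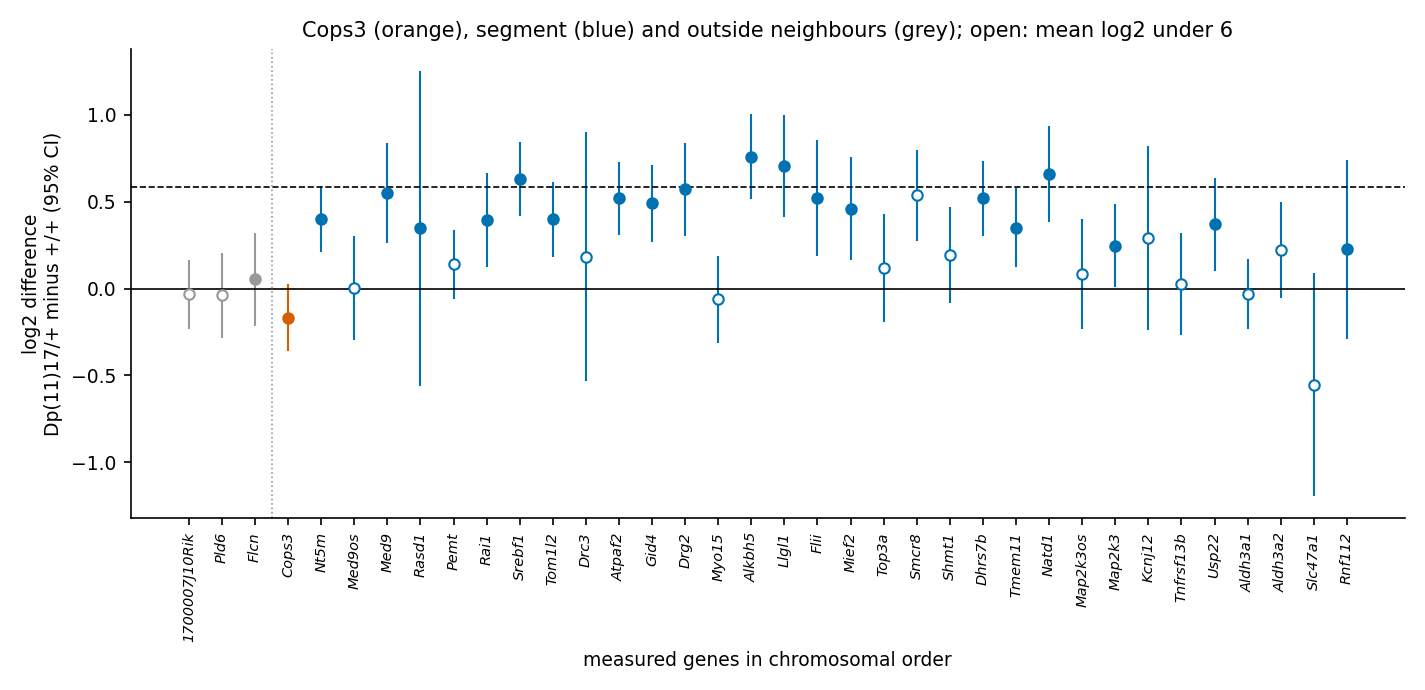
Log2 difference between Dp(11)17/+ and +/+ mice, with 95% confidence intervals, for Cops3 (orange), the other measured genes up to Rnf112 (blue) and the 3 measured genes outside (grey), in chromosomal order and evenly spaced; open symbols have a mean log2 value under 6 and the dashed line marks 1.5-fold. Cops3 lies at -0.17 and the adjacent Nt5m at 0.40.

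The NEDD8 cycle on which the complex acts was examined through lists of genes. None of the 50 measured genes in 6 lists passed limma at an adjusted p of 0.05 (0 of 50, against 0% of all probe sets). An unadjusted p under 0.05 was found for 5 of the 50, against 3.17% of all genes. Of the 50, 34 were lower and 16 higher, with a median of -0.06. Among all genes 58.3% were lower, with a median of -0.02, and the counts per list below are to be read beside that share.

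Among genes that attach NEDD8, 8 of 11 were lower and the median was -0.05. Nae1, a subunit of the enzyme that activates NEDD8, read 8.35, 8.54 and 8.55 against 8.64, 8.72 and 8.71, for a difference of -0.21 (interval -0.42 to -0.01) with no overlap. Rbx1, the RING subunit shared by most cullin ligases, gave 0.40 at a probe set with values of 3.42 to 4.25, near the array medians, where the groups overlapped. All 8 measured cullins were lower, by median -0.08 and between -0.13 and -0.03, and 0 of them had an unadjusted p under 0.05. Cul3 gave -0.13 and Cul5 -0.13, both with overlapping groups.

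Of 4 genes that remove NEDD8 by other routes or exchange cullin adaptors, 2 were lower and 2 higher. Senp8, a protease that processes NEDD8, gave 0.22 at values of 3.77 to 4.11. Cand1, which swaps substrate receptors on cullins that have lost NEDD8, read 7.31, 7.32 and 7.34 against 7.35, 7.61 and 7.49, a difference of -0.16 with groups that nearly touched. Of the cullin adaptors and substrate receptors 5 of 10 were lower, with Crbn, the receptor bound by thalidomide, at -0.15 and Skp2, an F-box protein of the cell cycle, at 0.24. The groups overlapped in both genes, and the Skp2 values were 3.90 to 4.52, not far above the array medians.

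The proteasome lid and the translation factor eIF3 are built from PCI and MPN subunits as the signalosome is. Of the lid genes 5 of 9 were lower, and their median was -0.05. Psmd12, the lid counterpart of Cops4, gave -0.20 (interval -0.37 to -0.03) with no overlap, and Psmd6, the counterpart of Gps1, gave -0.15. Psmd3, the counterpart of Cops3, gave 0.06. In eIF3, 6 of 8 were lower and the median was -0.09. Eif3c gave -0.18 and Eif3m -0.15, both without overlap. Single genes of these lists thus lay as far below wild type as Cops3, and the subunits' median of -0.15 stood beside list medians of -0.09 to -0.02. No test between lists was made.

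**Figure D4:**
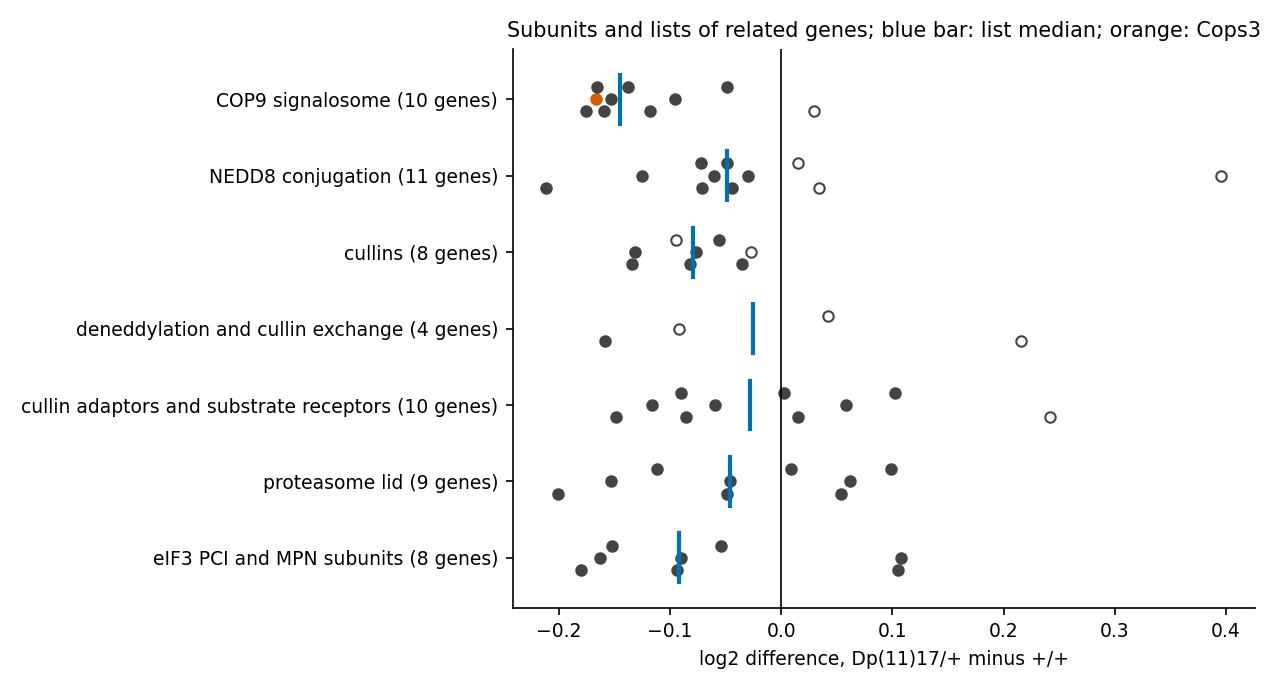
Log2 difference between Dp(11)17/+ and +/+ mice for the 10 subunit genes and the 50 measured genes of 6 related lists, 1 point per gene (open where the mean log2 value is under 6); blue bars are list medians and the orange point is Cops3. Subunit genes cluster between -0.18 and -0.05 apart from Cops7b, and the 8 cullins all lie left of 0.

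The genes whose values over the 6 mice were most like those of Cops3 were sought among 7095 others whose mean reached 6. Likeness was the root mean square difference between values centred on their own mean. The closest were Dnaja3, a mitochondrial co-chaperone, at 0.025, Chchd1, a mitochondrial ribosome protein, at 0.028, and Dnaja2, a cytosolic co-chaperone, at 0.029. Hprt, a purine salvage enzyme, followed at 0.030 and Zbtb33, a zinc finger protein that binds methylated DNA, at 0.031. Of the other subunits, Cops5 and Cops2 were closest, both at 0.076, with 6.00% and 6.30% of the 7095 genes closer. Cops7a was farthest, at 0.149, with 46.5% closer. These distances describe 6 mice and say nothing of shared control.

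Regional marker lists spread more widely between mice than Cops3 or the subunit mean. Relative to the wild-type mean, the 6 thalamic markers stood at -0.09, -0.02 and 2.39 in Dp(11)17/+ mice 1, 2 and 3, all 6 of them higher in the duplication group on average. The 4 CA1 markers stood at -0.69, 0.45 and -1.35. Markers of microglia and of endothelial cells were higher in 6 of 6 and 4 of 5, and their means were 7.04 to 7.41 against 6.84 to 7.12 and 6.05 to 6.24 against 5.92 to 5.95. No list had a marker at 0, which RMA values do not reach. The part of these differences in the subunits' values was not tested, beyond the values without single mice given above. In Dp(11)17/+ mouse 2 alone, 8 of the 10 members were lower, Cops7b and Cops9 being at 0.01.

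**Figure D5:**
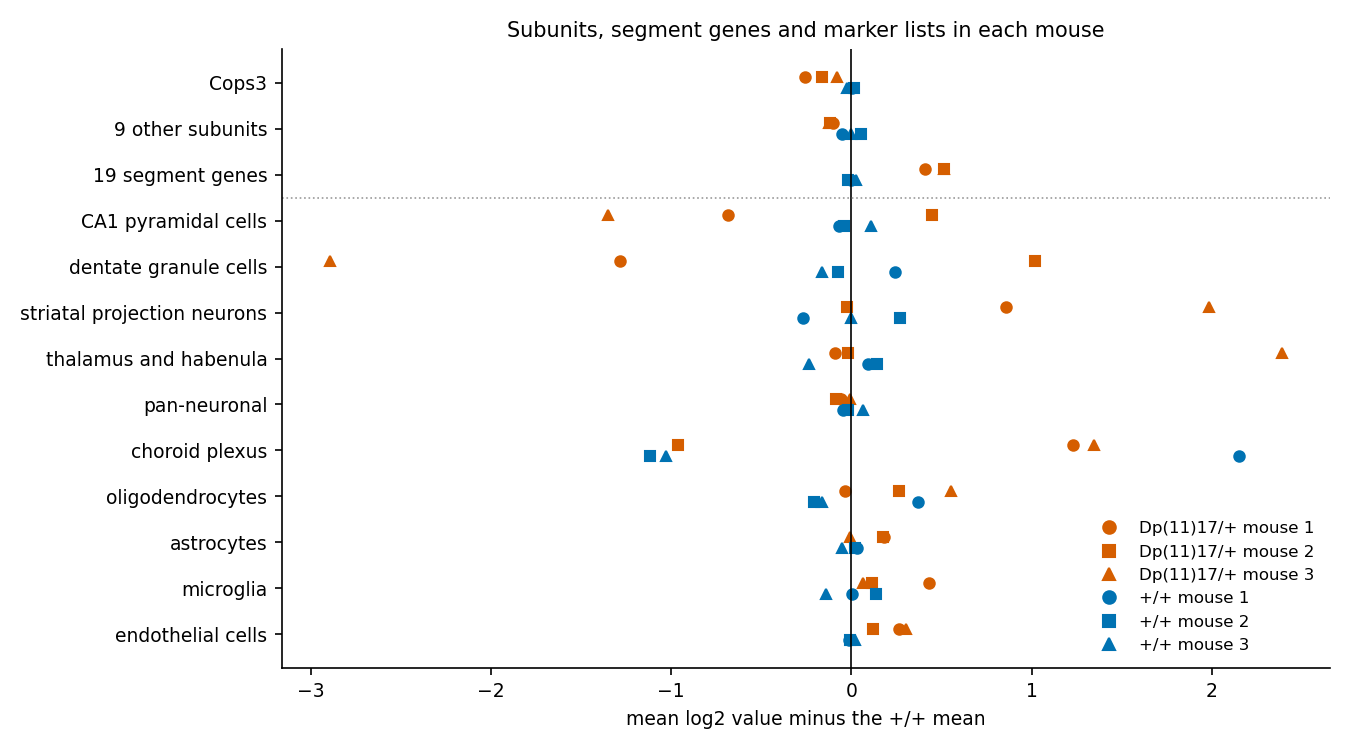
Mean log2 value minus the +/+ mean in each mouse (orange Dp(11)17/+, blue +/+, symbol by mouse number) for Cops3, the 9 other subunits, 19 genes of the segment and 10 marker lists. Cops3 and the subunit mean stay within 0.26 of wild type, while the dentate mean of Dp(11)17/+ mouse 3 lies at -2.90 and its thalamic mean at 2.39.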

How the data were processed

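RNA of 6 hippocampus samples was hybridized to 1-colour Affymetrix arrays with biotin label, per the labels. Each sample record names 1 individual, while the labelling protocol speaks of pools. The authors deposited log2 values per probe set made with RMA, per the submitters' processing notes, which corrects background, normalizes quantiles over the arrays and summarises probes. Its version and the genome build are not given in the sources used here. Values were used as deposited. Control probe sets were left out, and 34945 of 45037 probe sets had 1 gene symbol, 34741 of them found in a RefSeq gene table of GRCm38.p6 by Entrez identifier. A gene was given by its probe set with the highest mean.

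Genotypes were compared with limma 3.58.1 in R 4.3.3 (lmFit, eBayes, no covariate, two-sided, 7.11 degrees of freedom), with Benjamini-Hochberg adjustment over all probe sets. The fit was tested on simulated data. The limma p-values weigh the difference between group means against the spread within groups, which the fit moderates with that of all probe sets. The number of arrays limits precision. Members, lists and tests were chosen with earlier results of these data known. Named were all members, 3 neighbours of Cops3 on each side, the 2 genes of smallest p per related list and the 5 genes most like Cops3. Nedd8-conjugating Ube2m and 4 marker genes were not analysed here. Psmd3, Slc47a1 and the promoter motifs were added after values were seen. Alternatives were filters, scalings, variance models, other probe sets and mice left out.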

Additional observations from a re-analysis of the deposited data

How the results depend on the processing

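The direction of the 9 lower members and of Cops7b held under every filter, scaling, variance model and left-out mouse run. Exceptions were the filter at a mean of 6, which removed Cops7b, and Dp(11)17/+ mouse 2 alone, where Cops9 was 0.011. Directions also held with the mean over probe sets and with the probe set of largest SD. For Cops3 and Cops5, among others, the latter was the brightest one again. Their dim probe sets taken alone had small positive differences, as given above. The upper end of the Cops3 interval stayed below 0.58 in 14 of 14 alternative fits, between -0.02 and 0.10. It lay under 0 with array weights and with a plain equal-variance statistic. Leaving out single mice gave -0.21 to -0.12 for Cops3, -0.10 to -0.00 for Cops3 relative to the other subunits and 0.47 to 0.51 for the segment median. With the mean over probe sets Cops3 was -0.01 and Cops3 relative to the other subunits turned to 0.10. Counts of members past an adjusted p of 0.05 or 0.1 were 0 in each limma fit and with the plain statistic. At an unadjusted p under 0.05 the count for the 10 genes was 0 in the limma fit reported, 1 with array weights (Cops3), 1 with the mean over probe sets or the probe set of largest SD (Cops6), and 3 with the plain statistic (Cops3, Gps1 and Cops6). Scalings moved the median of all genes by at most 0.01. Array signal, with 3 dim Cops3 probe sets, limits what can be read of this gene. No paired analysis was possible because the labels give the mice of both groups no shared numbers.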
